A study of Homo sapiens with 54 samples.

Results

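TXNIP and 9 genes of glucose uptake and glycolysis (SLC2A1, HK2, PFKP, PFKFB3, ALDOA, PGK1, ENO1, PKM and LDHA) were followed in 6 ovarian cancer cell lines before and during exposure to carboplatin. They were picked by symbol and are 10 of the 25435 genes in the deposited expression table. The choice was made with earlier results of these data known, among them that PFKP and PFKFB3 were lower in untreated PEA2 than in untreated PEA1 cells. Differences between those 2 groups are therefore given as a description with no test. Tests of PFKP and PFKFB3 between the same lines under carboplatin are not independent of that choice. All 10 genes passed the filter on low values, a TPM (transcripts per 1000000) of at least 1 in at least 3 libraries, and were among the 18013 genes tested.

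Glycolysis splits glucose into pyruvate. SLC2A1 (GLUT1) carries glucose into the cell, HK2 traps it by phosphorylation, PFKP is a subunit of the committing enzyme phosphofructokinase, and PFKFB3 makes the metabolite that activates that enzyme. ALDOA cleaves the sugar, PGK1 and PKM (pyruvate kinase) make ATP, ENO1 (enolase) forms the substrate of PKM, and LDHA turns pyruvate into lactate. TXNIP, the thioredoxin-interacting protein, works in the other direction: it lowers glucose uptake by taking glucose transporters off the cell surface, and it binds thioredoxin. Its gene responds to glucose through the factor MondoA, encoded by MLXIP, and several glycolysis genes are targets of hypoxia-inducible factor 1 and of MYC.

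The lines are 3 pairs from high-grade serous ovarian cancer, each pair from the same patient: resistant PEA2 with sensitive PEA1, resistant PEO4 with sensitive PEO1, and resistant PEO23 with sensitive PEO14. Each was grown untreated or in 80 µM carboplatin, a DNA-crosslinking platinum drug, for 8 h or 24 h. The labels give the dose in µM and call the controls untreated, while the series text gives the dose in mM and a vehicle control at 24 h. Each of the 18 groups had 3 cultures. PEA1 cultures were at far higher passages than PEA2 cultures. PEO1 cultures were also at higher passages than PEO4 cultures at each time, by a smaller gap. Passage and resistance therefore cannot be told apart in either of these pairs. In PEA2, PEA1, PEO4 and PEO1 every treated culture was at a later passage than every untreated one, and in PEO14 the untreated cultures were at the low end of the passages, so carboplatin and passage cannot be fully told apart in any change from untreated. Nothing says how each replicate culture was started beyond its passage and the 3 days on which the experiment was run. All cells of a library were lysed together, so a change in the make-up of the culture and a change per cell cannot be told apart.

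Of the 54 libraries, 12 listed only 2678 to 11754 genes above 0 and were left out of all tests, and the 42 kept libraries listed 12877 to 17133. Earlier results of these data had found libraries of the wrong line among those with few genes. The kept libraries include 1 of untreated PEA1, none of untreated PEO23, 1 each of PEO4 and PEO14 at 24 h, 2 each of PEA2, PEO1 and PEO4 at 8 h, and 3 of each other group; a lone library was assumed to vary like the other groups. Levels are given as rescaled TPM, in which each library is multiplied so that its median gene matches the other libraries; the read depth of each library is unknown, because TPM keeps none. A change is a difference of log2(rescaled TPM + 1), given with its standard error (SE), and p-values are from limma's moderated test with Benjamini-Hochberg adjustment over all 18013 genes, called under 0.05. RMRP and RPPH1, a pair of small noncoding RNAs, took 7.14 to 19.5% of all TPM in untreated libraries, and up to 45.6% in treated ones, which lowers the TPM of every other gene. Without rescaling, the median of all genes moved by -0.31 to -1.14 at 8 h and by -0.34 to -1.12 at 24 h, and treatment changes are reported relative to that shift. Epithelial marker genes summed to 789 to 13266 deposited TPM, with PAX8, EPCAM, KRT7, KRT8 and KRT18 above 0 in all 42 kept libraries and WT1, MUC16 and SOX17 at 0 in 3, 6 and 19 of them, and fibroblast, leukocyte and endothelial markers to 0 to 103.94, 0 to 26.9 and 0 to 279.

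The promoters of 3 of the genes are shown, and whether the marked stretches have a part in the treatment results below was not tested. They come from RefSeq on GRCh38.p14, 250 bases before to 50 after the start of the gene, and all 10 genes matched the promoter table. The TXNIP window shown is chr1:145996530-145996829 on the minus strand. Capitals mark CACGAG followed after 5 bases by a further CACGAG, the form of carbohydrate response element that was searched. The other TXNIP window does not hold this form. The PGK1 window is chrX:78103998-78104297 on the plus strand and the ENO1 window chr1:8878637-8878936 on the minus strand, with capitals marking ACGTG or GCGTG, the core of the hypoxia response element, on either strand.
TXNIP: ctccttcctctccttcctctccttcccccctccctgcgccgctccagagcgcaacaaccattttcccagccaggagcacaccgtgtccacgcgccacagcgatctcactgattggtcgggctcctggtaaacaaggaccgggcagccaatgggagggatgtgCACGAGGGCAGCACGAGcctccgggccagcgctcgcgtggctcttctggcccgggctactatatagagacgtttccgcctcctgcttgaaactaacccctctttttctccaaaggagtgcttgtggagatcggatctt
PGK1: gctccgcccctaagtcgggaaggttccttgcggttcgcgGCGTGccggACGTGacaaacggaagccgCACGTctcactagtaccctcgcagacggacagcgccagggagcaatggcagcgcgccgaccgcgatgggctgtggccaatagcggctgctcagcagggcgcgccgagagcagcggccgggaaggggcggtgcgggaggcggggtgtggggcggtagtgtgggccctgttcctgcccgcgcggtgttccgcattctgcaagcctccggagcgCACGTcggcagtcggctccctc
ENO1: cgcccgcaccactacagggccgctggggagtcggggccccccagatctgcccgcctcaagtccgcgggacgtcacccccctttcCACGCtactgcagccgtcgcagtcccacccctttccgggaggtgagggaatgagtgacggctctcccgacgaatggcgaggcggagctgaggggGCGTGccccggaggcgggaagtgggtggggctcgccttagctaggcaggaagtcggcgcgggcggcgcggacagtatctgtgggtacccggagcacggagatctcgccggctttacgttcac
The TXNIP element, CACGAGGGCAGCACGAG, begins 88 bases before the start of the gene, and the same form was found in 2 of 35116 promoter windows (0.0057%), the other being that of KCTD5. Only this exact form, that of the TXNIP element itself, was searched, with no mismatch allowed. Its match in TXNIP was given by that choice, and its rarity says nothing about carbohydrate response elements in general. PGK1 holds 3 ACGTG and 1 GCGTG, whereas ENO1 holds 2 GCGTG and no ACGTG. PKM, which is not shown, has 1 window with 1 GCGTG and no ACGTG. Among all windows 21.4% hold ACGTG and 36.5% GCGTG on at least 1 strand, against 10 and 11 of the 19 windows that the 10 genes have in the table. CACGTG, which contains ACGTG, is in 7.26% of all windows and in 4 of these 19. The windows of a gene can overlap, and only 4 of the genes have a single window. These are matches of letters, not measured binding sites.

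On rescaled values TXNIP was higher under carboplatin in 3 of the 5 lines with an untreated library, PEO4, PEO1 and PEO14. On those values the time of the rise differed between PEO4 and PEO1. In PEO1, TXNIP had 8.04, 15.1 and 6.02 rescaled TPM untreated, 6.04 and 6.36 at 8 h, and 61.2, 59.4 and 64.5 at 24 h. The 24 h libraries of PEO1 stood well above all its others, and those at 8 h lay within the untreated range. The change in PEO1 was 2.64 ± 0.28 at 24 h (SE, adjusted p = 3.5e-08) and -0.49 ± 0.31 at 8 h (adjusted p = 0.23).

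In PEO4, TXNIP had 15.3, 14.0 and 16.2 rescaled TPM untreated, 50.3 and 41.5 at 8 h, and 41.4 at 24 h. In PEO14 it had 11.6, 13.7 and 11.8 untreated, 50.2, 41.1 and 32.2 at 8 h, and 48.2 at 24 h. In both lines every treated library was above every untreated one, already at 8 h. TXNIP rose by 1.54 ± 0.31 at 8 h (adjusted p = 0.00013) and by 1.40 ± 0.40 at 24 h (adjusted p = 0.012) in PEO4, and by 1.64 ± 0.28 (adjusted p = 4.6e-05) and 1.89 ± 0.40 (adjusted p = 0.00049) in PEO14. The call in PEO1 at 24 h held under the other scalings, with 2.13 without rescaling and 2.46 when each library was scaled to the TPM left without RMRP, RPPH1 and the ribosomal protein genes, a remaining-total scaling chosen after seeing the data. The 8 h change in PEO4 was -0.05 and 0.72 under those scalings, neither called, and the change in PEO1 at 8 h was -1.91 and -1.31, both called lower. At 24 h in PEO4 they gave 0.90 and 1.20, and in PEO14 0.56 and 1.18, with no call, and at 8 h in PEO14 1.08 without a call and 1.37 with one. RMRP and RPPH1 held 27.6 to 38.2% of TPM in PEO4 at 8 h against 7.23 to 13.6% untreated, and the part of this in the change was not tested beyond these scalings.

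No change of TXNIP was called in the PEA lines. TXNIP in PEA2 had 31.6, 36.8 and 32.5 rescaled TPM untreated, 41.0 and 58.3 at 8 h, and 48.8, 39.5 and 33.1 at 24 h. In PEA1 it had 13.4 in the untreated library, 12.9, 26.9 and 22.0 at 8 h, and 20.5, 25.0 and 14.7 at 24 h. The treated and untreated values overlap in PEA2 at 24 h and in PEA1 at 8 h. Both PEA2 libraries at 8 h were above its untreated ones, and each PEA1 library at 24 h was above its 1 untreated library. With 1 untreated PEA1 library, a small change in that line could be missed. PEO23, without an untreated library, had 36.1, 32.9 and 21.0 at 8 h and 56.9, 64.7 and 37.8 at 24 h. Its groups do not overlap, but the 24 h minus 8 h difference of 0.81 ± 0.28 did not pass the test (adjusted p = 0.28).

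**Figure D1:**
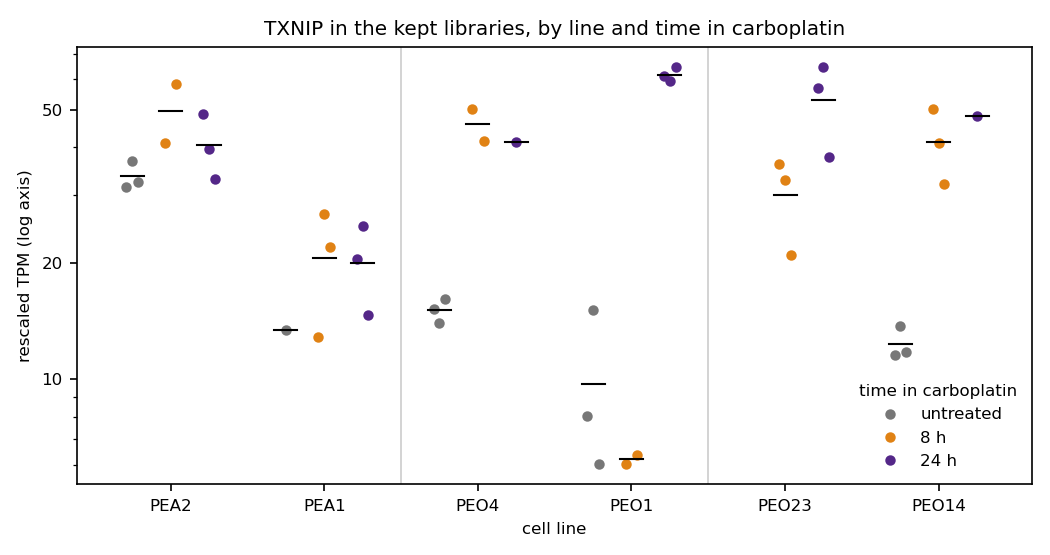
TXNIP level in rescaled TPM (log axis) in each kept library (dots) and as the group mean (black line), for each line untreated and at 8 h and 24 h of carboplatin. PEO1 stays at 6.04 and 6.36 at 8 h and reaches 59.4 to 64.5 at 24 h, while PEO4 and PEO14 are already at 32.2 to 50.3 at 8 h.

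Whether the change differed within a pair was tested directly, with the 8 h and 24 h cultures of a line treated as unpaired. The 8 h minus untreated change of TXNIP was larger in PEO4 than in PEO1 by 2.02 ± 0.44 (adjusted p = 0.009), where 0.749% of all genes were called higher. The 24 h minus 8 h change was smaller in PEO4 than in PEO1, with a difference of -3.26 ± 0.52 (adjusted p = 0.0021), where 0.416% were called lower. Over the whole 24 h the changes differed by -1.24 (adjusted p = 0.24), which did not pass. At 8 h itself TXNIP was higher in PEO4 than in PEO1, by 2.70 ± 0.34 (adjusted p = 1.4e-06), where 4.66% of all genes were called higher. This held under both other scalings (2.34 and 2.40). It was not called by limma with all 54 libraries (1.86, adjusted p = 0.706) or in the fit of only the compared groups. The differences of changes were 1.86 and -3.09 without rescaling, neither called, and 2.02, not called, and -3.28, called, with the remaining-total scaling. Without the libraries in which RMRP and RPPH1 took over 35% of TPM, also a choice made after seeing the data, they were 2.19, no longer called (adjusted p = 0.064), and -3.43, called (adjusted p = 0.013). With all 54 libraries they were 1.39 and -3.83, neither called. In all, 7 such differences were tested over the 3 pairs, and among the 70 tests of the 10 genes only these 2 of TXNIP passed. Called in either direction were 0.339%, 0.383% and 0.00555% of all genes for PEA2 against PEA1 (8 h and 24 h minus untreated, and 24 h minus 8 h), 2.38%, 1.38% and 0.822% for PEO4 against PEO1, and 0.139% for PEO23 against PEO14 (24 h minus 8 h).

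Untreated, TXNIP was highest in PEA2, at 33.7 ± 2.78 rescaled TPM (SD, n = 3), followed by PEO4 at 15.1 ± 1.08 (n = 3), PEA1 at 13.4 (n = 1), PEO14 at 12.4 ± 1.18 (n = 3) and PEO1 at 9.73 ± 4.77 (n = 3). Below PEA2 the PEO1 values span those of PEA1 and PEO14 and reach into those of PEO4. TXNIP was also higher in PEA2 than in PEA1 under carboplatin, by 1.27 ± 0.31 at 8 h (adjusted p = 0.004; 8.98% of all genes called higher) and by 0.99 ± 0.28 at 24 h (adjusted p = 0.01; 10.2% called higher). These calls rest on single libraries: without PEA2 replicate 3 at 8 h the difference was 1.02 (adjusted p = 0.122), and at 24 h it was 0.85 (adjusted p = 0.068) without PEA2 replicate 1 and 0.79 (adjusted p = 0.089) without PEA1 replicate 3. Without rescaling the differences were 1.27 and 1.0007 with no call.

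Of the 9 genes of glucose uptake and glycolysis followed, PGK1, ENO1 and PKM were called under carboplatin in the most lines. They were called higher in PEA2, PEO4, PEO1 and PEO14 at both times. Genes of neighbouring steps, given further below, did not all go the same way. Of the 10 genes, those called higher and lower at 8 h were 3 and 0 in PEA2 (3.54% of all genes called higher and 10.8% lower), 1 and 0 in PEA1 (0.6% and 5.3%), 5 and 1 in PEO4 (21.6% and 32%), 4 and 0 in PEO1 (17.5% and 24.5%), and 5 and 0 in PEO14 (8.92% and 21.2%). At 24 h they were 4 and 0 in PEA2 (4.77% and 12.5%), 0 and 0 in PEA1 (0.788% and 5.23%), 4 and 0 in PEO4 (7.26% and 12.7%), 4 and 1 in PEO1 (15.7% and 22.9%), and 5 and 2 in PEO14 (13.5% and 22.7%). In PEA1 at 24 h, 4 of the genes had an unadjusted p under 0.05. The share of all genes with such a p is not given here, so this count is not read as a response. The median change of the 10 genes at 24 h was 0.55 in PEA2, 0.54 in PEA1, 0.80 in PEO4, 0.56 in PEO1 and 0.82 in PEO14, where the median over all genes was -0.01, 0, -0.10, -0.12 and -0.27. Both times are set against the same untreated libraries.

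These directions depend on the scaling. Over the 5 lines, 18 changes of the 10 genes were called higher and 1 lower at 8 h, against 1 higher and 11 lower without rescaling and 8 higher and 10 lower with the remaining-total scaling. At 24 h the split was 17 and 3, against 1 and 4 and against 6 and 3. The shares of all genes given above are those of the main fit. Counts under the other scalings therefore show only that the calls change with the scaling, not how the 10 genes compare with all genes. With all 54 libraries no change of the 10 genes against untreated was called at either time. Ribosomal protein genes took 14.8 to 25% of TPM in treated libraries and 7.56 to 14.6% in untreated ones, and beyond the remaining-total scaling, which leaves these genes out, their part in the result was not tested. Without rescaling the median of all genes fell by 1.14 in PEO1 and 1.12 in PEO4 at 8 h, so the reports of higher levels below are relative to the median gene of the same library.

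PGK1, phosphoglycerate kinase, had 60.7, 51.6 and 59.6 rescaled TPM in untreated PEO4, 526 and 767 at 8 h, and 198 at 24 h. In PEO1 it had 112, 72.4 and 104.71 untreated, 338 and 665 at 8 h, and 270.0, 244 and 228 at 24 h. In PEO14 it had 135, 141 and 136 untreated, 486, 355 and 275 at 8 h, and 658 at 24 h. In all 3 lines each treated library was above each untreated one. The PEO4 change at 8 h was the largest of PGK1 at 3.45 ± 0.30 (adjusted p = 5.3e-10), followed by PEO1 at 2.31 ± 0.30 (adjusted p = 1e-06) and PEO14 at 1.39 ± 0.27 (adjusted p = 0.00024). At 24 h PGK1 was higher by 1.77 ± 0.38 in PEO4 (adjusted p = 0.0015), 1.37 ± 0.27 in PEO1 (adjusted p = 0.00021) and 2.25 ± 0.38 in PEO14 (adjusted p = 5.3e-05). PGK1 was positive in these lines under every scaling, but without rescaling only PEO4 at 8 h was called (1.80), with 0.58 in PEO1 and 0.80 in PEO14.

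In PEA2, PGK1 had 86.9, 89.4 and 103.39 rescaled TPM untreated, 181 and 208 at 8 h, and 212, 201 and 198 at 24 h. The treated libraries were about level with each other and all above the untreated ones. The changes were 1.05 ± 0.30 at 8 h (adjusted p = 0.018) and 1.12 ± 0.27 at 24 h (adjusted p = 0.004), and the 8 h call was lost without either 8 h library (0.95, adjusted p = 0.205, without replicate 3 and 1.15, adjusted p = 0.061, without replicate 1). PEA1 had 142 in its untreated library, 247, 351 and 249 at 8 h, and 295, 324 and 240.0 at 24 h. Its differences of 0.97 and 1.00 did not pass the test (adjusted p = 0.15 and 0.13). PEO23 had 429, 304 and 316 at 8 h and 373, 276 and 147 at 24 h, and these groups overlap.

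ENO1, the most abundant of the 10 genes by its median over the libraries, 933 rescaled TPM, had 572, 451 and 526 in untreated PEO4, 2112 and 2005 at 8 h, and 1573 at 24 h. In PEO1 it had 542, 424 and 678 untreated, 1398 and 1322 at 8 h, and 1019, 909 and 875 at 24 h. In both lines the 8 h libraries were the highest and the untreated ones the lowest. ENO1 rose by 1.9999 ± 0.22 at 8 h in PEO4 (adjusted p = 1.7e-08) and by 1.34 ± 0.22 in PEO1 (adjusted p = 1.9e-05), and at 24 h by 1.61 ± 0.28 (adjusted p = 0.00015) and 0.79 ± 0.20 (adjusted p = 0.002). In PEO14 it rose by 1.10 ± 0.20 at 8 h (adjusted p = 8.4e-05) and 1.14 ± 0.28 at 24 h (adjusted p = 0.002). Without rescaling ENO1 was called in none of these, and it turned to -0.40 in PEO1 at 8 h and to -0.24 in PEO14 at 24 h.

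ENO1 was also called in the PEA lines. PEA2 had 780.2, 609 and 782 rescaled TPM untreated, 1234 and 1031 at 8 h, and 1259.7, 1273 and 1296 at 24 h, with changes of 0.65 ± 0.22 (adjusted p = 0.045) and 0.83 ± 0.20 (adjusted p = 0.0034). The 8 h call was lost without any 1 of the 5 PEA2 libraries behind it (0.52 to 0.78). PEA1 had 737 untreated and 1323, 1714 and 1339 at 8 h, a change of 0.97 ± 0.28 (adjusted p = 0.032) that became 0.85 (adjusted p = 0.105) without replicate 2 at 8 h. Without rescaling the PEA changes of ENO1 were 0.25, 0.38 and 0.55 in the same order, none called.

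PKM had 744, 619 and 707 rescaled TPM in untreated PEO4, 2106 and 1819 at 8 h, and 1463 at 24 h. In PEO1 it had 309, 293 and 378 untreated, 599 and 552 at 8 h, and 509.6, 465 and 531 at 24 h. In PEO14 it had 360.2, 369.8 and 411 untreated, 861, 685 and 739.6 at 8 h, and 817 at 24 h. Untreated and treated libraries did not overlap in any of the 3 lines. The changes at 8 h were 1.51 ± 0.18 in PEO4 (adjusted p = 5.5e-08), 0.82 ± 0.18 in PEO1 (adjusted p = 0.00046) and 1.00 ± 0.16 in PEO14 (adjusted p = 2e-05), and without rescaling they were -0.15, -0.91 and 0.40, none called. At 24 h PKM was higher by 1.09 ± 0.23, 0.63 ± 0.16 and 1.10 ± 0.23 in PEO4, PEO1 and PEO14 (adjusted p = 0.001, 0.0025 and 0.00038), with -0.28 in PEO14 without rescaling. PEA2 showed 0.57 ± 0.18 at 8 h (adjusted p = 0.028) and 0.53 ± 0.16 at 24 h (adjusted p = 0.021). The PEA2 calls were lost without any of 4 libraries at 8 h (0.49 to 0.66) and any of 3 at 24 h (0.47 to 0.53).

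**Figure D2:**
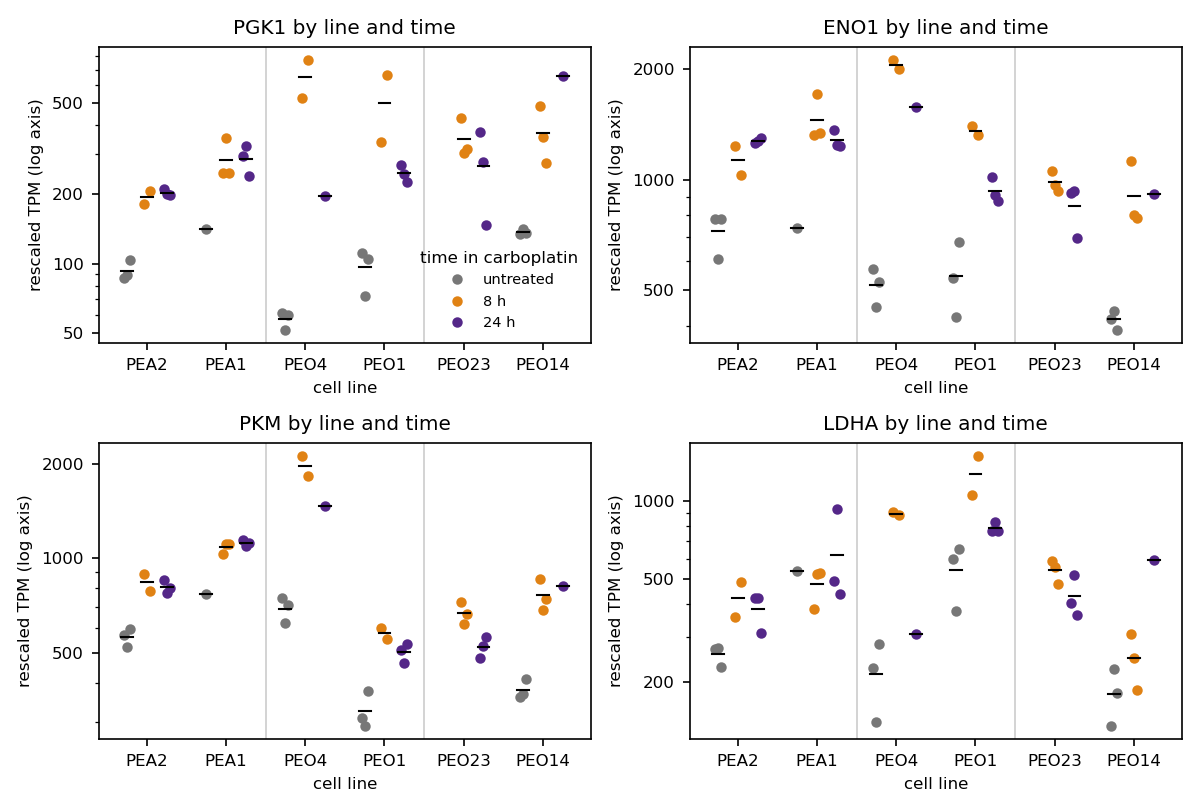
Levels of PGK1, ENO1, PKM and LDHA in rescaled TPM (log axes) in each kept library (dots) with the group mean (black line), by line and time. PGK1 in PEO4 lies at 51.6 to 60.7 untreated and at 526 and 767 at 8 h, the widest step of the 4 genes.

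LDHA, lactate dehydrogenase A, moved in fewer lines. It had 227, 140.3 and 281 rescaled TPM in untreated PEO4, 909 and 879 at 8 h, and 306 at 24 h. It had 599, 376 and 653 in untreated PEO1, 1051 and 1485 at 8 h, and 765, 828 and 767 at 24 h. In PEO4 the 8 h libraries stood apart and the 24 h library was close to the highest untreated one. LDHA rose by 2.10 ± 0.32 in PEO4 (adjusted p = 2.1e-06) and by 1.24 ± 0.32 in PEO1 at 8 h (adjusted p = 0.0021; 0.99, adjusted p = 0.067, without PEO1 replicate 2 at 8 h), with -0.50 in PEO1 without rescaling. In PEO14 it had 136, 225 and 181 untreated, 308, 247 and 187 at 8 h, and 590.0 at 24 h, with a call only at 24 h (1.73 ± 0.40, adjusted p = 0.0012). Without rescaling the LDHA changes were 0.45 in PEO4 at 8 h and 0.35 in PEO14 at 24 h, with no call. The PEA lines had no LDHA call. ALDOA, aldolase A, was called in no line at either time, with a range of 306 to 1292 over the 42 libraries.

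SLC2A1, HK2, PFKP and PFKFB3 had fewer calls, lower for SLC2A1 and HK2 and higher for PFKP. In the comparisons with a lower call, 22.7 to 32% of all genes were called lower. In those with a PFKP call, 4.77 and 8.92% were called higher. The glucose transporter SLC2A3, looked at afterwards, was called higher in PEO14 at both times and in no other line. SLC2A1 had 124, 124 and 104.99 rescaled TPM in untreated PEO14, 162, 153 and 204 at 8 h, and 62.7 at 24 h, where it fell by 0.90 ± 0.31 (adjusted p = 0.026). In PEO1 it had 26.6, 43.7 and 19.9 untreated, 22.7 and 26.4 at 8 h, and 19.9, 15.7 and 16.0 at 24 h, where it fell by 0.71 ± 0.22 (adjusted p = 0.012). The 24 h values were the lowest of PEO14, and in PEO1 they were at or below its lowest untreated library. The PEO1 call was lost without untreated replicate 2 (-0.41, adjusted p = 0.168) or 24 h replicate 2 (-0.65, adjusted p = 0.051), and the PEO14 call without untreated replicate 1 (-0.85, adjusted p = 0.052) or 2 (-0.86, adjusted p = 0.052). Both were called under the other scalings, at -1.25 without rescaling and -0.91 with the remaining-total scaling in PEO1 and at -2.26 and -1.62 in PEO14. In PEA1, SLC2A1 had 45.1 untreated and 103.38, 66.2 and 98.7 at 24 h, a difference of 0.94 that did not pass (adjusted p = 0.072).

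HK2, hexokinase 2, had 43.7, 34.8 and 82.3 rescaled TPM in untreated PEO4, 17.2 and 12.7 at 8 h, and 66.4 at 24 h. It fell by 1.69 ± 0.38 at 8 h (adjusted p = 0.00043), with both 8 h libraries below every other PEO4 library. In PEO14 it had 19.4, 22.6 and 27.2 untreated, 15.2, 15.7 and 34.5 at 8 h, and 7.77 at 24 h. The 24 h library was the lowest of PEO14, a fall of 1.44 ± 0.48 (adjusted p = 0.02; -1.32, adjusted p = 0.050, without untreated replicate 3). Both falls were called under the other scalings, with -3.19 and -2.46 in PEO4 at 8 h, but with all 54 libraries HK2 in PEO4 at 8 h turned to 0.37.

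PFKP had 14.2, 11.3 and 16.4 rescaled TPM in untreated PEA2, 25.7 and 18.5 at 8 h, and 27.5, 21.3 and 31.7 at 24 h, and rose by 0.89 ± 0.26 at 24 h (adjusted p = 0.016). In PEO14 it had 72.7, 75.6 and 82.3 untreated, 139, 102.65 and 131 at 8 h, and 71.4 at 24 h, and rose by 0.68 ± 0.26 at 8 h (adjusted p = 0.047). The treated libraries were above the untreated ones in both of these comparisons, but the PEA2 call was lost without any of 3 libraries (0.76 to 0.87) and the PEO14 call without any of 5 (0.59 to 0.73), and neither was called under the other scalings (0.47 and 0.67 in PEA2, 0.084 and 0.38 in PEO14). PFKFB3 was called in no line at either time.

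**Figure D3:**
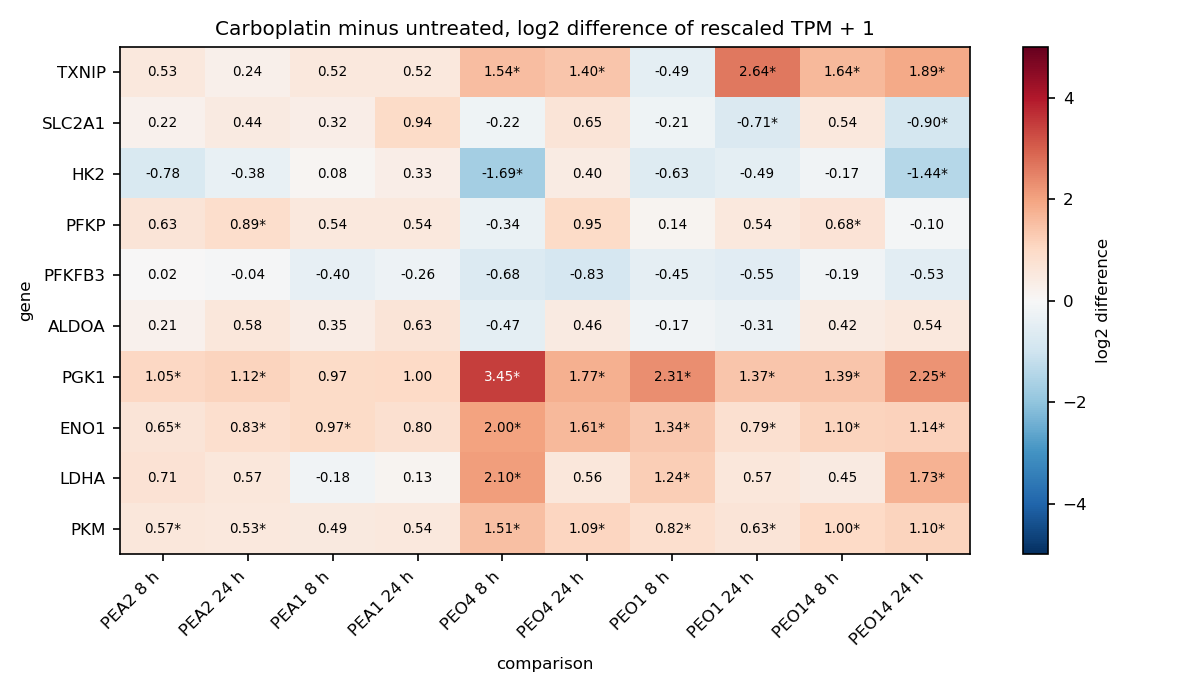
Log2 change of each of the 10 genes (down the page) against untreated at 8 h and 24 h of carboplatin in the 5 lines with an untreated library; the numbers are the differences and asterisks mark an adjusted p under 0.05. PGK1, ENO1 and PKM are positive throughout on rescaled values, with 3.45 for PGK1 in PEO4 at 8 h, while TXNIP in PEO1 goes to -0.49 at 8 h and 2.64 at 24 h.

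Between 8 h and 24 h, few of the genes differed. In PEO1 only TXNIP passed (3.12 ± 0.31, adjusted p = 1.1e-06), where 0.0944% of all genes were called higher, and it passed under both other scalings (4.04 and 3.76). In PEO4, where 7.66% of all genes were called higher and 6.42% lower, HK2 rose by 2.09 ± 0.51 (adjusted p = 0.0098) and PFKP by 1.29 ± 0.39 (adjusted p = 0.027), while PGK1 fell by 1.68 ± 0.41 (adjusted p = 0.0093) and LDHA by 1.54 ± 0.42 (adjusted p = 0.017). These PEO4 calls rest on 1 library at 24 h, and all 4 were lost without PEO4 replicate 2 at 8 h (1.89, 0.62, -1.41 and -1.57 in the same order, with adjusted p = 0.081, 0.368, 0.095 and 0.080). HK2 and PFKP were called under the other scalings, whereas PGK1 and LDHA gave -0.54 and -0.41 without rescaling and were not. In PEO14, with 2% of all genes called lower, SLC2A1 fell by 1.44 ± 0.31 (adjusted p = 0.013). It gave -1.32 (adjusted p = 0.053) without PEO14 replicate 3 at 8 h. With cultures of the same number at 8 h and 24 h blocked as pairs, the SLC2A1 call was lost (-1.36, adjusted p = 0.198) and ALDOA in PEO4 passed (1.19, adjusted p = 0.041, against 0.93 and 0.059 unblocked). By limma none of the 10 genes was called in PEA2 (0% of all genes called), PEA1 (0.0278%) or PEO23 (0.394%), and 0, 1 and 3 of them had an unadjusted p under 0.05.

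**Figure D4:**
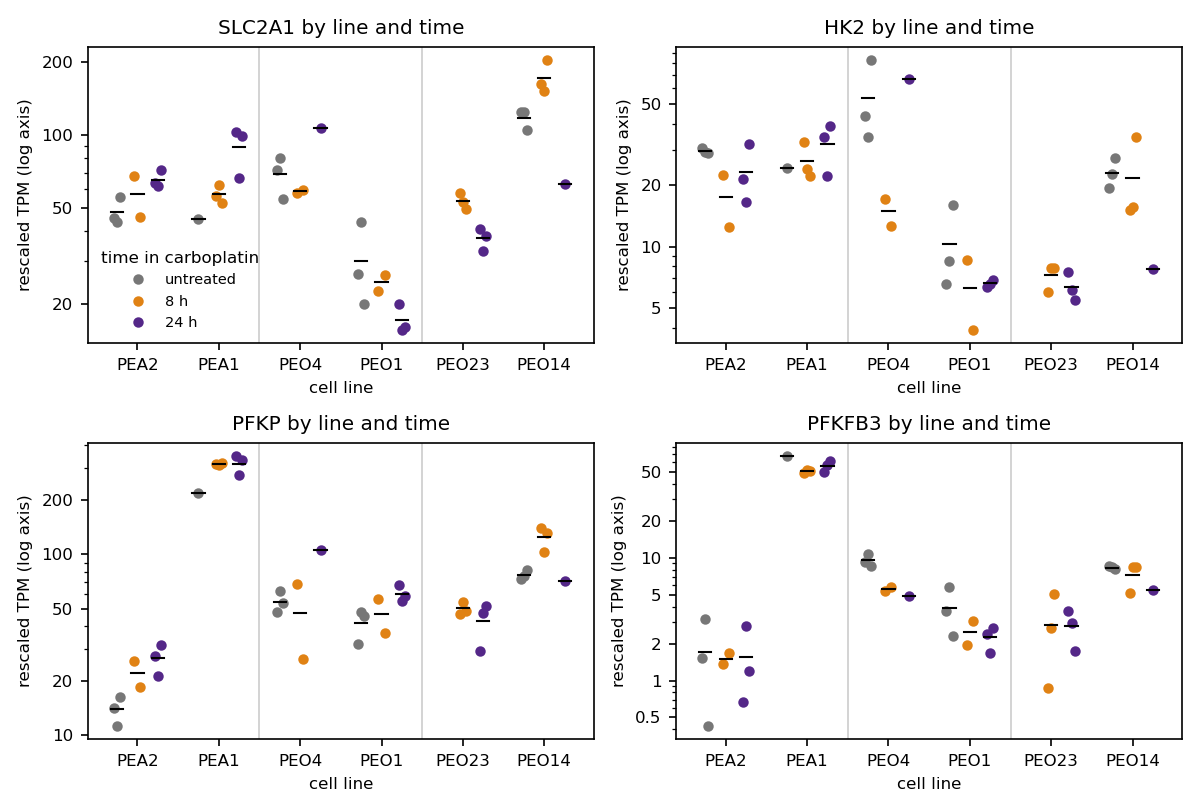
Levels of SLC2A1, HK2, PFKP and PFKFB3 in rescaled TPM (log axes) in each kept library (dots) with the group mean (black line), by line and time. PFKP at 217 to 347 and PFKFB3 at 49.5 to 67.0 in PEA1 stand above every library of the other lines.

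Within the pairs, the largest differences were those of PFKP and PFKFB3 between PEA2 and PEA1. The untreated differences were known when the genes were chosen. The tests at 8 h and 24 h compare the same lines, so they are not independent of that choice. Untreated, PFKP had 14.2, 11.3 and 16.4 rescaled TPM in PEA2 and 217 in PEA1, and PFKFB3 had 1.52, 3.18 and 0.429 in PEA2 and 67.0 in PEA1, differences of -3.88 and -4.78 given as a description (6.32% of all genes called higher and 5.25% lower). At 8 h PFKP had 25.7 and 18.5 in PEA2 and 315, 310.5 and 321 in PEA1. At 24 h it had 27.5, 21.3 and 31.7 in PEA2 and 347, 273 and 331 in PEA1. The PEA1 libraries were far above those of PEA2 at each time, and so they were for PFKFB3, with 1.35 and 1.67 in PEA2 against 49.5, 51.9 and 50.8 in PEA1 at 8 h, and 0.666, 2.77 and 1.19 in PEA2 against 49.7, 57.4 and 61.4 in PEA1 at 24 h. PFKP was lower in PEA2, with differences of -3.79 ± 0.29 at 8 h (adjusted p = 1.4e-11; 7.18% of all genes called lower) and -3.52 ± 0.26 at 24 h (adjusted p = 4.3e-12; 8.55% called lower). PFKFB3 was lower with differences of -4.37 ± 0.41 (adjusted p = 1.3e-09) and -4.57 ± 0.37 (adjusted p = 3.2e-11). Both were called at 8 h and 24 h under every scaling and with all 54 libraries. PKM was lower in PEA2 than in PEA1 at 24 h with a difference of -0.47 ± 0.16 (adjusted p = 0.038), a call lost without any 1 of the 6 libraries (-0.50 to -0.44).

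PEO4 differed from PEO1 before treatment in 6 of the 10 genes, 4 higher and 2 lower, where 15.4% of all genes were called higher and 13% lower. HK2 had 43.7, 34.8 and 82.3 rescaled TPM in untreated PEO4 and 6.54, 8.46 and 16.0 in untreated PEO1. SLC2A1 had 71.8, 80.5 and 54.5 in PEO4 and 26.6, 43.7 and 19.9 in PEO1. Neither gene's groups overlap. HK2 was higher in PEO4 by 2.26 ± 0.34 (adjusted p = 7.5e-06), SLC2A1 by 1.22 ± 0.22 (adjusted p = 9.3e-05), PKM by 1.08 ± 0.16 (adjusted p = 4.8e-06) and PFKFB3 by 1.15 ± 0.37 (adjusted p = 0.018). LDHA was lower in PEO4 with a difference of -1.34 ± 0.28 (adjusted p = 0.00054) and PGK1 with -0.72 ± 0.27 (adjusted p = 0.047). The PFKFB3 call was lost without PEO4 replicate 2 (1.07, adjusted p = 0.053) or PEO1 replicate 3 (0.90, adjusted p = 0.111), and the PGK1 call without any of 5 of the 6 libraries (-0.76 to -0.60). HK2, SLC2A1, LDHA and PGK1 were called under every scaling, PFKFB3 under no other, and PKM with the remaining-total scaling (0.75) but not without rescaling (0.85). In the fit of only the compared groups 1 of the 10 genes was called higher and 0 lower. With all 54 libraries 0 were called in either direction.

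Under carboplatin SLC2A1 and PKM were also higher in PEO4 than in PEO1. At 8 h SLC2A1 differed by 1.22 ± 0.27 (adjusted p = 0.0026) and PKM by 1.77 ± 0.20 (adjusted p = 1.3e-07), with 4.66% of all genes called higher and 5.23% lower. At 24 h, on the 1 PEO4 library, HK2 was higher by 3.15 ± 0.48 (adjusted p = 2.5e-05), SLC2A1 by 2.58 ± 0.31 (adjusted p = 6.7e-07), PKM by 1.54 ± 0.23 (adjusted p = 1.2e-05) and ALDOA by 1.35 ± 0.31 (adjusted p = 0.0027), and LDHA was lower with a difference of -1.36 ± 0.40 (adjusted p = 0.015), with 11.9% of all genes called higher and 9.68% lower. ALDOA had 1152 in that PEO4 library against 469, 436 and 453 in PEO1. Under the other scalings HK2 and SLC2A1 were called at 24 h, and SLC2A1 at 8 h was not (1.04 without rescaling and 1.0006 with the remaining total), nor was it without the libraries over 35% RMRP and RPPH1 (1.31, adjusted p = 0.064). PKM was not called without rescaling (1.61 at 8 h and 1.36 at 24 h), nor was LDHA at 24 h (-1.55), and ALDOA was called under neither (1.16 and 1.03). With all 54 libraries ALDOA and PKM turned to -0.28 and -0.14 at 24 h.

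PEO23 and PEO14 could be compared only under carboplatin. At 8 h SLC2A1 had 57.7, 52.7 and 49.5 rescaled TPM in PEO23 and 162, 153 and 204 in PEO14. PFKP had 47.0, 54.8 and 48.7 in PEO23 and 139, 102.65 and 131 in PEO14. HK2 had 6.0035, 7.89 and 7.83 in PEO23 and 15.2, 15.7 and 34.5 in PEO14. All 3 genes were lower in each PEO23 library than in each PEO14 library. SLC2A1 was lower with a difference of -1.67 ± 0.22 (adjusted p = 2.5e-06), PFKP with -1.28 ± 0.26 (adjusted p = 0.00072), HK2 with -1.38 ± 0.34 (adjusted p = 0.0056) and PFKFB3 with -1.24 ± 0.37 (adjusted p = 0.02), where 8.01% of all genes were called lower. LDHA was higher, with 586, 557 and 480.0 in PEO23 and 308, 247 and 187 in PEO14, a difference of 1.15 ± 0.28 (adjusted p = 0.0049; 6.83% called higher).

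Without rescaling the lower calls of PEO23 at 8 h held (-2.54 for SLC2A1, -2.15 for PFKP, -2.11 for HK2 and -1.78 for PFKFB3), and the LDHA difference was 0.26, or 0.65 with the remaining-total scaling, and not called. Without the libraries over 35% RMRP and RPPH1, HK2, PFKFB3 and LDHA lost their calls at 8 h (-1.26, -1.15 and 1.20, with adjusted p = 0.153, 0.176 and 0.093). HK2 gave -1.0047 (adjusted p = 0.077) without PEO14 replicate 3. PFKFB3 gave -0.79 (adjusted p = 0.196) without PEO23 replicate 1, and -1.14 without PEO14 replicate 2 (adjusted p = 0.076) or replicate 3 (adjusted p = 0.084). At 24 h PGK1 alone was called, lower with a difference of -1.41 ± 0.38 (adjusted p = 0.026; 2.49% of all genes called higher and 2.68% lower), against the 1 PEO14 library of 658. Without PEO23 replicate 3 it gave -1.03 (adjusted p = 0.118), with all 54 libraries 0.22, and without rescaling -1.20 with no call.

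**Figure D5:**
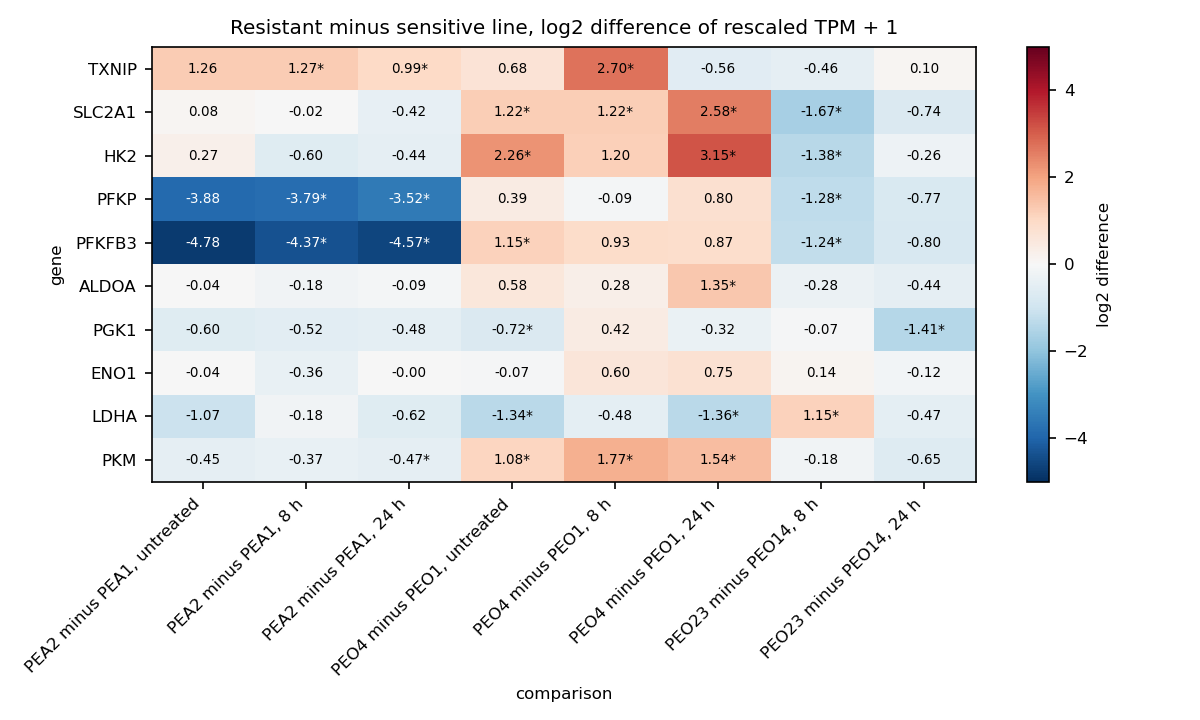
Log2 difference of each of the 10 genes between the resistant and the sensitive line of each pair, untreated and at 8 h and 24 h; numbers are the differences and asterisks mark an adjusted p under 0.05, with none drawn for the untreated PEA pair, whose differences are given without a test. PFKP and PFKFB3 reach -3.88 and -4.78 in the PEA pair, and HK2 reaches 3.15 in PEO4 minus PEO1 at 24 h.

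Among other genes of the TXNIP pathway, a list of 15 tested genes with the regulators of TXNIP, its arrestin relatives and the thioredoxin system, MLXIP (MondoA) was called lower at both times in all 5 lines with an untreated library, under all 3 scalings. MLXIP had 34.7, 52.2 and 19.9 rescaled TPM in untreated PEO4, 1.32 and 0.493 at 8 h, and 3.15 at 24 h. In PEO1 it had 25.1, 31.3 and 17.7 untreated, 1.77 and 0.268 at 8 h, and 2.44, 3.16 and 2.37 at 24 h. The treated libraries lay far below the untreated ones in both lines. MLXIP changed by -4.20 ± 0.42 (adjusted p = 3.6e-09) in PEO4 and by -3.74 (adjusted p = 1.1e-07) in PEO1 at 8 h, and the smallest changes were those of PEA2, -1.48 at 8 h and -1.35 at 24 h. The related MLXIPL (ChREBP) was lower in PEO4 with a difference of -3.44 at 8 h, TXN (thioredoxin) was higher by 3.60 ± 0.49 in PEO4 at 8 h and by 3.60 in PEO14 at 24 h, and ARRDC3, an arrestin relative of TXNIP, was higher by 3.16 ± 0.45 in PEO14 at 24 h. Called higher and lower in this list were 1 and 1 in PEA2, 1 and 1 in PEA1, 5 and 4 in PEO4, 5 and 1 in PEO1, and 2 and 3 in PEO14 at 8 h, and 1 and 1, 1 and 1, 0 and 2, 6 and 3, and 5 and 2 at 24 h in the same order. The shares of all genes called higher and lower in these comparisons are those given beside the counts of the 10 genes. In PEO4 at 8 h 33.3% and 26.7% of this list were called higher and lower, against 21.6% and 32% of all genes, and in PEO1 at 24 h 40% and 20% against 15.7% and 22.9%. Its median change at 24 h was 0.24 in PEA2, 0.22 in PEA1, 0.19 in PEO4, 0.52 in PEO1 and 0.46 in PEO14, where the medians over all genes were 0 or below.

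Among 25 other tested genes of glycolysis and pyruvate entry, those called higher and lower at 8 h were 2 and 1 in PEA2, 1 and 1 in PEA1, 7 and 6 in PEO4, 7 and 4 in PEO1, and 11 and 2 in PEO14. At 24 h they were 5 and 1, 2 and 0, 5 and 1, 8 and 3, and 11 and 2 in the same order. The median change of these genes at 24 h was 0.34 in PEA2, 0.24 in PEA1, 0.51 in PEO4, 0.47 in PEO1 and 0.92 in PEO14, where that of all genes was -0.01, 0, -0.10, -0.12 and -0.27. In PEO4 at 8 h 28% and 24% of the list were called higher and lower, against 21.6% and 32% of all genes, and in PEO14 44% and 8% against 8.92% and 21.2%. At 24 h they were 20% and 4% in PEO4, against 7.26% and 12.7% of all genes, and 44% and 8% in PEO14, against 13.5% and 22.7%. MPC1, a subunit of the mitochondrial pyruvate carrier, was listed at 0 in all 3 untreated PEO4 libraries and at 23.2 and 29.1 rescaled TPM at 8 h. LDHB, the other lactate dehydrogenase subunit, was higher by 3.61 ± 0.49 and PDHB, a subunit of pyruvate dehydrogenase, by 3.56 ± 0.39 in PEO4 at 8 h, and PKLR, the liver and red cell pyruvate kinase, was lower with a difference of -3.62. TPI1 and PGAM1, which act next to ALDOA and ENO1 in the pathway, were picked after their values were seen: TPI1 was called higher in all 5 lines at both times, and PGAM1 in 4 lines at 8 h and in 5 at 24 h, but without rescaling they turned to -0.43 and -0.28 in PEO1 at 8 h. Also picked afterwards, GAPDH, which acts between TPI1 and PGK1, was called in no line at either time. ENO2, another enolase, was called lower in PEO4 and PEO14 at 8 h.

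Of 16 tested hypoxia-response genes, those called higher and lower were 1 and 1 in PEA2, 0 and 0 in PEA1, 6 and 4 in PEO4, 2 and 3 in PEO1, and 2 and 3 in PEO14 at 8 h, and 2 and 1, 0 and 0, 1 and 1, 5 and 1, and 4 and 1 at 24 h in the same order. In PEO4 at 8 h these were 37.5% and 25% of the list, against 21.6% and 32% of all genes, and in PEO1 at 8 h 12.5% and 18.8%, against 17.5% and 24.5%. The shares of PEO1 lie below those of all genes in both directions, so these counts say nothing about the list. The median change of the list at 8 h was 0.15 in PEA2, -0.098 in PEA1, -0.006 in PEO4, -0.047 in PEO1 and 0.15 in PEO14, where that of all genes was -0.02, 0, -0.23, -0.15 and -0.16. ANGPTL4, a secreted inhibitor of lipoprotein lipase, was lower with a difference of -3.17 at 8 h in PEO1, and BNIP3L, a mitophagy receptor, was higher by 1.96 in PEO4 at 8 h and by 2.08 in PEO14 at 24 h, neither called without rescaling (0.36 and 0.77). Between the lines, EGLN3, an oxygen-sensing hydroxylase, was higher in PEA2 than in PEA1 by 5.39 at 8 h and 5.49 at 24 h, while ADM (adrenomedullin) was lower with a difference of -3.28 at both times. SLC16A1, the lactate transporter MCT1, was lower in PEA2 than in PEA1 with a difference of -1.80 at 24 h, and TXNRD1, thioredoxin reductase, was lower in PEO4 than in PEO1 with differences of -2.33, -2.09 and -2.87 untreated, at 8 h and at 24 h.

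Across the 42 kept libraries on the log2 scale, the genes with a pattern most like that of TXNIP among 8022 compared were MRE11A (Pearson's r = 0.678), PRKCI (0.678), RNF114 (0.676), DNAJB9 (0.655) and ATF3 (0.649). Among the 10 genes the closest patterns were those of PFKP and PFKFB3 (0.859), ENO1 and PKM (0.797) and PGK1 and ENO1 (0.732), and the most opposed those of SLC2A1 and LDHA (-0.656). TXNIP correlated with the others at -0.333 (PFKFB3) to 0.355 (ENO1). The libraries share lines and treatments, and these values are descriptions. PGK1, ENO1, LDHA, PKM, ALDOA and HK2 have pseudogenes, and how reads were divided between them is not given in the sources used here.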

How the data were processed

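RNA was sequenced as 75-base read pairs from libraries of a stranded total RNA kit, per the labels' protocols. The submitters' processing notes name bcl2fastq 2.18 and hg19; no source used here names the aligner, annotation or strand setting. The authors deposited TPM values per gene, in which each library sums to 1000000; RSEM is named only by the table. In the deposited table, 28 symbols had turned into dates and 2 were duplicated. Libraries listing fewer than 12000 genes above 0 were left out, the others were rescaled by median ratios over 8287 genes, and limma 3.58.1 in R 4.3.3 (trend, 1 coefficient per group) was run on log2(rescaled TPM + 1), with p-values adjusted per comparison. Scripts were tested on simulated data. The genes, lists and tests were chosen with earlier results of these data known.

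Other genes were named by size of change within each list among genes with a group mean of at least 10 rescaled TPM that passed the test, besides those stated as picked afterwards. Same-numbered 8 h and 24 h cultures of a line share their passage in 18 of 18 cases, so they are paired. The correlation of their deviations was -0.247 to 0.411 over 10 pairs. The main fit did not use this pairing, and no block was run for the differences of changes. No label pairs other groups by replicate number or says which experiment day a number stands for. Alternatives were all 54 libraries, no rescaling, a pseudocount of 0.1, no filter, fits of only the compared groups and a replicate block. Each library was also left out in turn where its group held another. Chosen after seeing the data were scaling to the TPM left without RMRP, RPPH1 and ribosomal protein genes, and leaving out libraries with over 35% RMRP and RPPH1. Promoters were searched on both strands.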

Additional observations from a re-analysis of the deposited data

Results flagged for a closer look

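Some results stand apart. The change of TXNIP differed within the PEO4 and PEO1 pair by a direct test of the difference: by 2.02 between 8 h and untreated cells and by -3.26 between 24 h and 8 h. On rescaled values the PEO4 level was already raised at 8 h and that of PEO1 only at 24 h. The PEO4 rise at 8 h was not called under the other scalings, where PEO1 was called lower at 8 h. With all 54 libraries the PEO4 change at 8 h was 0.20 and not called. Without each library that could be left out, the differences were 1.68 to 2.28 and -3.40 to -3.13. The lone PEO4 library at 24 h, on which the second difference rests, could not be left out. The 8 h difference was lost under other settings: 2.19 (adjusted p = 0.064) without libraries over 35% RMRP and RPPH1, 2.02 (0.066) with the remaining-total scaling, 1.86 (0.245) without rescaling and 1.39 (1) with all 54 libraries. The second difference was -3.43 (adjusted p = 0.013), -3.28 (0.032), -3.09 (0.1998) and -3.83 (0.285) under the same settings, called under the first pair of them only.

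Other values come from libraries left out of every test for listing few genes, and they are in deposited TPM, without rescaling. PEA2 at 8 h replicate 2 was above the highest kept untreated PEA2 library in 8 of the 10 genes, with 1082.74 for ALDOA (842.25 in that untreated library), 2088.83 for ENO1 (1327.87), 12.17 for PFKFB3 (5.5), 35.95 for PFKP (25.56), 230.68 for PGK1 (161.48), 1243.22 for PKM (971.16), 159.54 for SLC2A1 (86.38) and 74.02 for TXNIP (63.71). HK2 was high in 4 left-out libraries: 273.98 in PEO4 at 24 h replicate 1 and 315.24 in PEO4 at 8 h replicate 3 (at most 111.31 untreated), 137.2 in PEO1 at 8 h replicate 3 (25.94 untreated) and 173.15 in PEO14 at 24 h replicate 3 (42.46 untreated). How far few detected genes set these values was not tested.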

How the results depend on the processing

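Of 74 called tests of the 10 genes, 24 lost the call without some 1 library and none reversed, 2 lost it with a pseudocount of 0.1 and none without the filter. The lone libraries of untreated PEA1 and of PEO4 and PEO14 at 24 h could not be left out. With all 54 libraries 64 lost the call and 5 reversed. Counts called higher and lower over the pairs were 4 and 2 untreated (PEO4 minus PEO1), 5 and 6 at 8 h and 5 and 5 at 24 h; over 8 h minus untreated 18 and 1, 24 h minus untreated 17 and 3, and 24 h minus 8 h 3 and 3. With all 54 libraries they became 0 and 0, 0 and 2, 1 and 2, 0 and 0, 0 and 0, and 0 and 0. Shares of all genes are given above for the main fit only, so counts under other settings are not set against all genes. Without rescaling, the counts that moved past 1.5 times were 2 higher untreated, 1 higher at 8 h, 2 and 2 at 24 h, 1 and 11 for 8 h minus untreated, 1 higher for 24 h minus untreated, and 5 and 1 for 24 h minus 8 h. The remaining-total scaling gave 3 higher between pairs at 8 h, 3 and 3 at 24 h, 8 and 10 for 8 h minus untreated, 6 higher for 24 h minus untreated, and 5 and 1 for 24 h minus 8 h. Without libraries over 35% RMRP and RPPH1, 3 were higher between pairs at 8 h and 1 between 24 h and 8 h. Fits of only the compared groups, possible where both had at least 2 libraries, gave 1 (of 4) higher and 0 (of 2) lower untreated, 0 (of 5) higher between pairs at 8 h, and 0 lower for both treatment times. The replicate block gave 0 and 0 untreated, where all 6 calls of PEO4 minus PEO1 were lost (adjusted p = 0.067 to 0.161), 3 lower between pairs at 24 h and 0 lower for 24 h minus untreated; only 8 h and 24 h cultures are paired by passage. Leaving out 1 library gave 3 to 6 and 1 to 2, 4 to 6 and 4 to 6, 4 to 6 and 4 to 5, 15 to 19 and 1 to 2, 15 to 18 and 2 to 3, and 1 to 4 and 1 to 4.

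Fits of all 54 libraries hold the left-out ones, whose line is uncertain. Reversals, whose cause was not tested, were as follows. All 54 libraries gave -0.28 for ALDOA and -0.14 for PKM in PEO4 minus PEO1 at 24 h, 0.22 for PGK1 in PEO23 minus PEO14 at 24 h, 0.37 for HK2 in PEO4 at 8 h and -0.12 for PKM in PEO4 at 24 h. No rescaling gave -0.40 for ENO1, -0.50 for LDHA, -0.91 for PKM and -1.54 for PFKP in PEO1 at 8 h, -0.048 for TXNIP and -0.15 for PKM in PEO4 at 8 h, and -0.24 for ENO1 and -0.28 for PKM in PEO14 at 24 h. The remaining-total scaling gave -0.14 for PKM in PEO1 at 8 h. Pseudocount 0.1 ended the calls of PFKFB3 in PEO4 minus PEO1 untreated and of PFKP in PEO14 at 8 h. The read depth of each library is unknown, so how it limits the low values of PFKFB3 cannot be stated.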
